A study of Sus scrofa with 24 samples.

Results

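Retinoic acid, the hormone-like acid made from vitamin A, is built, bound, broken down and sensed by a small group of proteins, and 9 of their genes are described here: CYP26B1, CYP26A1, CRABP1, CRABP2, DHRS3, ALDH1A1, ALDH1A2, ALDH1A3 and RARB. They were listed by symbol and chosen by their FPKM levels across the depots and days of these same libraries, so their levels are a description and carry no test. Of the 9 genes, 8 were found among the 25462 genes of the table by their pig Ensembl identifiers, and RARB was not analysed here. Of these 8, 7 passed the limit for testing (FPKM summed over all libraries above 1), as did 16135 genes in all, and ALDH1A2 did not.

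The libraries were made from polyadenylated RNA of primary pig preadipocytes, isolated from 3 Yorkshire piglets at 6 days of age. The cells came either from the subcutaneous fat of the back (BF) or, as intramuscular preadipocytes, from digested longissimus dorsi muscle (IMF). Cells of both depots went through the same adipogenic induction, with IBMX, dexamethasone and insulin for the first 2 days, insulin alone for the next 2 days and growth medium after that. Libraries were made on days 0, 2, 4 and 8, which gave 8 groups (BF-0d to IMF-8d) of 3 libraries and 24 libraries in all. The cells carried no transgene or deletion, each group was a mixed primary culture, and the labels did not say which piglet a library came from, so p-values measure only the spread between these libraries, which may be partly technical.

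In the retinoid pathway, retinol taken up by the cell is oxidised reversibly to retinal, which DHRS3 can reduce back to retinol, and enzymes of the ALDH1A family oxidise retinal irreversibly to retinoic acid. The cytosolic proteins CRABP1 and CRABP2 bind the acid, enzymes of the CYP26 family hydroxylate and so inactivate it, and nuclear receptors (RARA, RARB and RARG, paired with an RXR) carry its effect to target genes, among them CYP26A1, DHRS3 and RARB in many cell types. Retinoic acid is known to hold back the early steps of fat cell formation in cultured preadipocytes.

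Receptors of this family bind direct repeats of a hexamer of bases, most often spaced by 5, 2 or 1 bases, and the promoters of the genes were read for such repeats to set their sequence beside their levels. The hexamers searched were AGGTCA itself, its close variant AGTTCA, another form GGTTCA and, as the last, GGGTCA in any pairing, on both strands, in 3000 bases before each annotated transcript start (RefSeq annotation of Sscrofa11.1, the build the authors used). Of the 7 genes that have both values and a RefSeq gene, CYP26A1 held 3 repeats with a spacing of 5, ALDH1A3 held 1 with a spacing of 1, and the other 5 held none. CYP26B1 had no matching RefSeq entry and its promoter was not read. A repeat with a spacing of 5 was found before 1.14% of 19534 protein-coding genes, and any of the 3 spacings before 4.41%. The sites of both genes are shown because CYP26A1 is the usual example of a gene that retinoic acid switches on, with the hexamers in capitals, 5′ to 3′ on the strand of the repeat and with 6 bases on either side:
CYP26A1, 64 to 48 bases before the start of the shorter transcript: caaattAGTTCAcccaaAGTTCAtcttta
CYP26A1, 1914 to 1898 bases before the same start: ctgcagGGGTCAcaggcGGGTCAggccgg
CYP26A1, 1070 to 1054 bases before the start of the longer transcript: ccttctGGTTCActaagGGGTCAactcag
ALDH1A3, 2785 to 2773 bases before its start: gagtcaAGGTCAgGGTTCAggacct

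CYP26A1 lies on the plus strand at chr14:104561394-104567099 with 2 annotated starts. The site nearest a start was chr14:104563530-104563546, on the opposite strand, and it and the site at chr14:104561680-104561696 both fell inside the first, non-coding exon of the longer transcript. The third, at chr14:104560324-104560340, fell in no annotated gene. Only 0.0921% of all genes had a repeat with a spacing of 5 within 300 bases of a start, as CYP26A1 did. The ALDH1A3 site, chr1:139448295-139448307, fell in an intron of LOC106509041, a predicted gene on the minus strand whose span shares 536 bases with that of ALDH1A3, so that without strand information reads of that stretch cannot be assigned to either gene. A match is a description of the letters and says nothing of receptor binding in these cells.

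FPKM values are fragments scaled to transcript length and to the fragments mapped in the library, so levels of different genes can be set side by side, but the number of reads behind them is unknown. Between 9985 and 10858 genes per library reached 1 FPKM. Replicates correlated at 0.962 to 0.994 across genes, and no library was identical to another. One library, BF-2d replicate 3, stood apart from its group: LPL, an enzyme that rises in forming fat cells, was at 6.71 FPKM there against 82.1 and 77.7 FPKM in the other replicates, and ACTA2, smooth muscle actin, at 588 against 61.2 and 102 FPKM. A second, BF-4d replicate 3, correlated at 0.965 and 0.970 with its group, whose other pair was at 0.991. Where leaving out either library moved a difference of a retinoic acid gene given below by more than 1 SD between replicates, the value without it follows.

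Some markers of mature fat cells stayed scarce. Of 10 adipocyte markers, 4 (ADIPOQ, PLIN1, LEP and PLIN4) stayed under 1 FPKM in all 24 libraries, and PPARG, the main adipogenic transcription factor, was at 5.75 FPKM in BF-2d replicate 3, at no more than 3.33 FPKM in any other library and lower in IMF than in BF on day 0 (difference -1.67, limma, adjusted p 4.66e-04). On day 2 its difference of -1.15 (adjusted p 0.00744) was lost without that library (-0.63, adjusted p 0.0221), and on days 4 and 8 it did not pass, at -0.47 and -0.79 (adjusted p 0.215 and 0.0409). The 10 markers summed to 9.79 to 11.4 FPKM in BF-0d, 23.97 to 94.3 in BF-2d, 183 to 319 in BF-4d and 282 to 622 in BF-8d, and to 3.55 to 4.55, 5.84 to 8.27, 12.3 to 15.3 and 98.3 to 144 FPKM in the IMF groups of the same days. LPL alone had a mean of 422 FPKM in BF-8d and 120 FPKM in IMF-8d. In BF the 6 smooth muscle and pericyte markers summed to 1577 to 1667 FPKM on day 0 and 69.9 to 603 on day 2. They summed to 22.4 to 81.7 FPKM in BF-4d and 14.2 to 32.2 in BF-8d. The IMF sums were 1752 to 2200 FPKM on day 0 and 813 to 1117 on day 2. On day 4 they were 1140 to 1181 FPKM, and on day 8 they were 265 to 289 FPKM. Most of the day 0 sums was ACTA2 (mean log2(FPKM + 1) of 10.6 in BF and 10.9 in IMF), and MYH11 stayed under 1 FPKM in every library. The 8 myogenic markers summed to 29.7 to 45.4 FPKM in IMF-0d and to at most 13.2 FPKM in any other group, all but DES of them under 1 FPKM throughout. The 7 stromal markers summed to 8371 to 9332 FPKM in BF-0d, 4499 to 8737 in BF-2d, 2942 to 4414 in BF-4d and 4018 to 4520 in BF-8d, and to between 8562 and 9511 FPKM in IMF up to day 4 and 4715 to 5260 in IMF-8d. Under 1 FPKM in every library were also 4 of 6 immune markers (PTPRC and CD3E among them), 3 of 5 endothelial markers (KDR, CDH5 and TEK) and both mesothelial markers in the table. The adipocyte, smooth muscle and stromal sums differed between days and depots together with the retinoic acid genes described next, and their part in the results was not tested. In such bulk libraries, fewer cells of a type and less RNA per cell cannot be told apart.

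**Figure D1:**
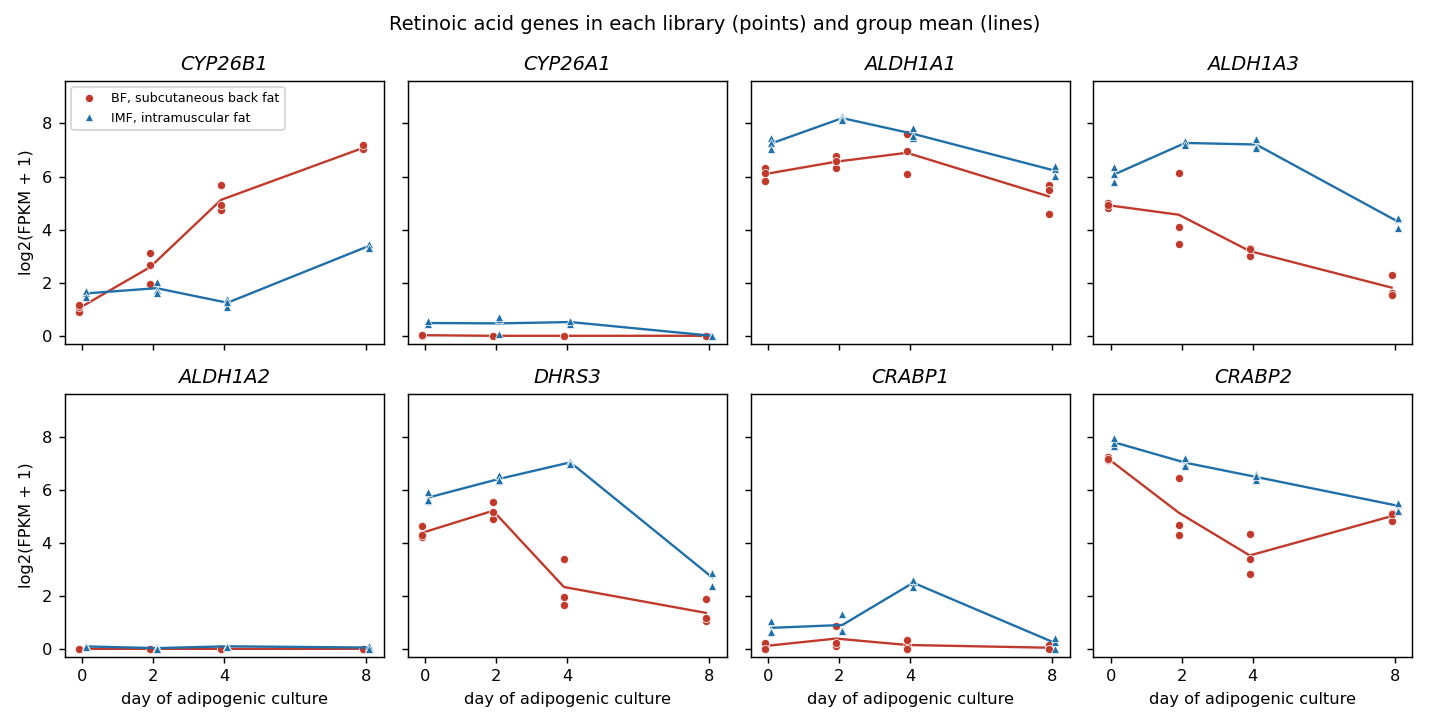
Levels of the 8 genes in the table, as log2(FPKM + 1) against the day of culture, with a point for each of the 24 libraries (circles BF, triangles IMF) and a line through the group means. CYP26B1 climbed in BF to a mean of 134 FPKM on day 8 while ALDH1A3, DHRS3 and CRABP2 stood higher in IMF, and CYP26A1 and ALDH1A2 stayed near 0.

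CYP26B1 (ENSSSCG00000008311), the enzyme that inactivates retinoic acid in many tissues, spanned 0.864 to 145 FPKM over the libraries. In BF cells it stood at 0.864, 1.11 and 1.23 FPKM in the 3 libraries of day 0, at 7.78, 5.38 and 2.88 FPKM on day 2, at 25.9, 29.5 and 50.5 FPKM on day 4 and at 129, 129 and 145 FPKM on day 8. The BF groups did not overlap from one day to the next, and the mean of day 8 was 126 times that of day 0 (105 to 168 times between single libraries). In IMF cells it stood at 2.09, 2.25 and 1.76 FPKM on day 0, at 2.35, 2.02 and 3.13 on day 2, at 1.11, 1.59 and 1.44 on day 4 and at 9.64, 10.1 and 8.81 FPKM on day 8. The IMF level thus stayed within a narrow band until day 4 and was higher only on day 8, where the mean was 6.89 times that of day 4. In order of the means, BF-8d and BF-4d led, followed by IMF-8d, and the neighbours BF-2d and IMF-2d, IMF-2d and IMF-0d, and IMF-4d and BF-0d overlapped.

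On the log2(FPKM + 1) scale the fitted change of CYP26B1 in BF was 1.55 over the first interval (day 0 to day 2), 2.53 over the next (to day 4) and 1.95 over the last (to day 8), each with a standard error (SE) of 0.23. Without BF-2d replicate 3 the earlier changes were 1.86 and 2.22 (SE 0.21), and without BF-4d replicate 3, the highest of its group, the later ones were 2.25 and 2.24 (SE 0.22). In IMF the 3 changes were 0.20, -0.55 and 2.15. The difference between depots, IMF minus BF, passed from 0.55 on day 0 through -0.79 on day 2 (-1.11 without BF-2d replicate 3) to -3.88 on day 4 (-3.59 without BF-4d replicate 3) and -3.69 on day 8, and the mean BF level was 25.6 times the IMF level on day 4 and 14.1 times on day 8.

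CYP26A1 (ENSSSCG00000010475), the second enzyme of the CYP26 family in the list and the one with the hexamer repeats shown above, was scarcely transcribed. It was listed at 0.353, 0.377 and 0.463 FPKM in the libraries of IMF-0d, at 0.543, 0.0593 and 0.618 in IMF-2d and at 0.461, 0.361 and 0.476 FPKM in IMF-4d. It was listed at 0 in all libraries of BF-2d, BF-4d, BF-8d and IMF-8d, and in BF-0d it reached 0.0279 FPKM at most. All values of CYP26A1 above that lay in the IMF groups of days 0 to 4, and CYP26B1 made up 70.6% to 97.2% of the summed CYP26 FPKM in those libraries and at least 96.9% in every other library. An exact 0 can be a failed estimate, and no fold change is given.

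The 3 ALDH1A genes encode the enzymes that make retinoic acid from retinal. ALDH1A1 (ENSSSCG00000028996, chr1:226163347-226217342) was the most abundant of them in every library. In BF it stood at 55.8, 78.3 and 69.8 FPKM on day 0, at 108, 79.8 and 94.3 on day 2, at 196, 125 and 67.0 on day 4 and at 23.2, 50.0 and 44.1 FPKM on day 8. In IMF it stood at 174, 154 and 129 FPKM on day 0, at 310, 295 and 276 on day 2, at 227, 174 and 186 on day 4 and at 76.2, 82.5 and 63.5 FPKM on day 8. IMF-2d was above every other group and BF-8d below every other group, whereas BF-4d spread so widely that it overlapped all other groups except IMF-2d and BF-8d.

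The fitted difference of ALDH1A1 between depots (IMF minus BF) was 1.16 on day 0, 1.64 on day 2 (1.65 without BF-2d replicate 3), 0.71 on day 4 and 0.97 on day 8 (SE 0.29), and from day 4 to day 8 the level was lower by 1.64 in BF and by 1.39 in IMF. The difference on day 4 was 1.08 without BF-4d replicate 1 and 0.31 without BF-4d replicate 3, and the change to BF-8d -1.28 and -2.05.

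ALDH1A3 (ENSSSCG00000004822, chr1:139451080-139491514) separated the depots more widely. In BF it stood at 27.5, 31.5 and 29.1 FPKM on day 0, at 16.1, 9.997 and 69.3 on day 2, at 8.80, 7.003 and 8.76 on day 4 and at 2.04, 3.93 and 1.92 FPKM on day 8. In IMF it stood at 67.7, 80.3 and 54.6 FPKM on day 0, at 151, 163 and 146 on day 2, at 141, 133 and 169 on day 4 and at 15.8, 19.9 and 20.8 FPKM on day 8. Every IMF library was above every BF library of its day, and the BF level was lowest on day 8 while the IMF level was highest on days 2 and 4, which overlapped. The mean IMF level was 2.30 times the BF level on day 0, 18.0 times on day 4 and 7.17 times on day 8.

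On the log2 scale the difference of ALDH1A3 between depots was 1.16, 2.70, 4.01 and 2.49 (SE 0.40) on days 0, 2, 4 and 8. The day 2 value was lowered by BF-2d replicate 3, and was 3.49 (SE 0.21) without it. The change from BF-0d to BF-2d was -0.36 with all libraries and -1.15 without that library, and turned to 0.19 without BF-2d replicate 2. From IMF-4d to IMF-8d ALDH1A3 was lower by 2.91. ALDH1A2 (ENSSSCG00000025578) was listed at no more than 0.0879 FPKM in any library, and above 0 in BF in 1 library.

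The summed FPKM of the ALDH1A genes and of the CYP26 genes were set against each other in each library, as a description of transcript levels and not of enzyme activity. Libraries of day 0 were alike in this ratio, with 79.3 to 99.2 in BF and 82.6 to 99.2 in IMF, although both sums were higher in IMF. The CYP26 sum beneath it was small, at 0.892 to 1.25 FPKM in BF-0d and 2.22 to 2.63 in IMF-0d. It was also small in IMF-2d (2.08 to 3.74) and IMF-4d (1.57 to 1.95), so that small shifts in it move these ratios. In BF the ratio was 15.95, 16.7 and, in replicate 3, 56.8 on day 2, then 1.498 to 7.90 on day 4 and 0.196 to 0.418 on day 8. In IMF it was 113 to 220 on day 2, 157 to 235 on day 4 and 9.54 to 10.2 on day 8. The BF cells thus ended with more CYP26 than ALDH1A transcript, and the IMF cells with the reverse.

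**Figure D2:**
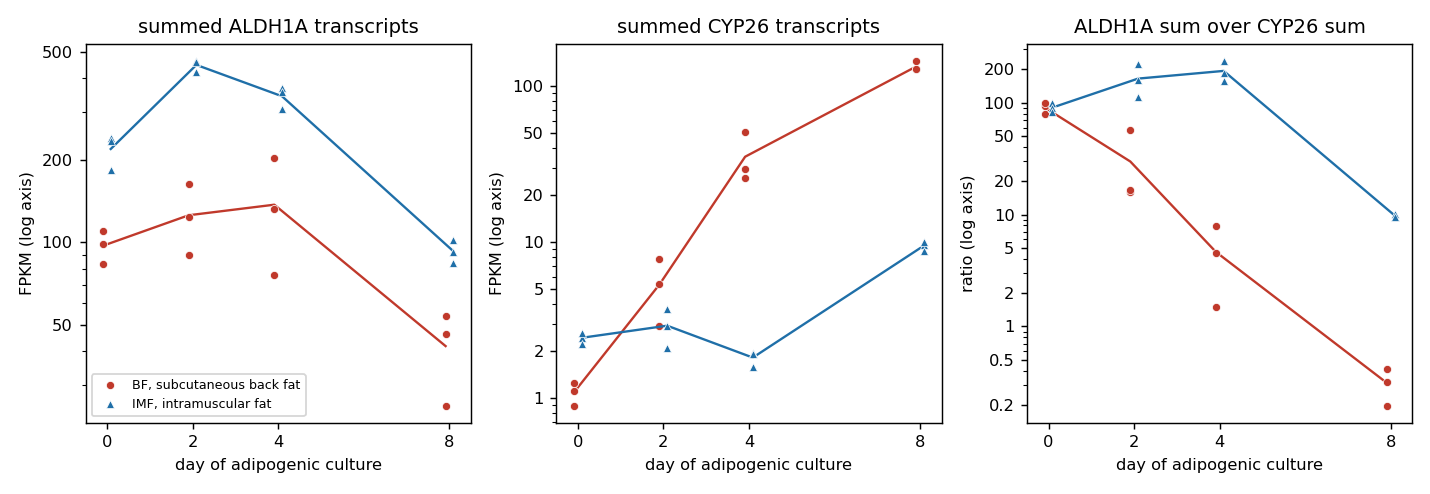
Summed FPKM of the ALDH1A genes (left), of the CYP26 genes (middle) and the ratio of the sums (right) in each of the 24 libraries, on log axes, with lines through the group means against the day of culture. The ratio was 79.3 to 99.2 in all 6 libraries of day 0 and 0.196 to 0.418 in BF-8d against 9.54 to 10.2 in IMF-8d.

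DHRS3 (ENSSSCG00000003439, chr6:72556234-72599233), which returns retinal to retinol and so draws on the precursor of retinoic acid, went apart in the depots between day 2 and day 4. In BF it stood at 17.3, 18.8 and 23.5 FPKM on day 0, at 28.8, 45.6 and 34.9 on day 2, at 9.32, 2.87 and 2.18 on day 4 and at 1.08, 1.22 and 2.63 FPKM on day 8. In IMF it stood at 46.7, 48.0 and 59.6 FPKM on day 0, at 80.1, 91.6 and 80.2 on day 2, at 136, 128 and 125 on day 4 and at 4.17, 6.21 and 6.24 FPKM on day 8. The IMF level was higher on each day up to day 4 without overlap and then dropped below that of BF-0d, and the BF level was highest on day 2. The mean IMF level was 27.0 times the BF level on day 4, with 13.4 to 62.3 times between single libraries and 51.3 times without BF-4d replicate 1, and 3.37 times on day 8.

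The fitted difference of DHRS3 between depots was 1.33, 1.20, 4.70 and 1.34 (SE 0.30) on days 0, 2, 4 and 8. Between days 2 and 4 it was lower by 2.87 in BF and higher by 0.62 in IMF, and by day 8 it was lower by a further 0.97 in BF and by 4.33 in IMF. The BF values leaned on BF-4d replicate 1, without which they were -3.39 and -0.46 and the day 4 difference between depots 5.22. Without BF-4d replicate 3 they were -2.54, -1.31 and 4.37, and without BF-2d replicate 3 the day 2 difference was 1.19 and the change to BF-4d -2.89.

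CRABP2 (ENSSSCG00000006472, chr4:93388198-93393861), which delivers retinoic acid to its receptors, was the most abundant gene of the group on day 0. In BF it stood at 138, 150 and 143 FPKM on day 0, at 18.4, 24.3 and 86.2 on day 2, at 19.1, 9.54 and 6.11 on day 4 and at 33.5, 27.2 and 32.6 FPKM on day 8. In IMF it stood at 198, 215 and 247 FPKM on day 0, at 125, 117 and 144 on day 2, at 80.2, 94.5 and 90.2 on day 4 and at 42.8, 36.0 and 44.5 FPKM on day 8. In IMF the level was lower on each later day without overlap, whereas in BF the mean was lowest on day 4, where it overlapped day 2, and all libraries of day 8 were above those of day 4.

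The fitted changes of CRABP2 in BF were -2.05, -1.61 and 1.48 (SE 0.37) over the 3 intervals, and the earlier ones were -2.70 and -0.95 (SE 0.26) without BF-2d replicate 3. In IMF they were -0.77, -0.54 and -1.09. The difference between depots was 0.61 on day 0, 1.89 on day 2 (2.55 without BF-2d replicate 3), 2.96 on day 4 (2.61 without BF-4d replicate 3) and 0.39 on day 8.

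CRABP1 (ENSSSCG00000021873, chr7:47602316-47608865), the other cytosolic binding protein, was a minor transcript whose highest level fell in a single group. In IMF-4d it stood at 4.77, 5.06 and 4.08 FPKM, in IMF-0d at 1.09, 0.591 and 0.556, in IMF-2d at 0.623, 1.51 and 0.588 and in IMF-8d at 0, 0.197 and 0.322 FPKM. In BF it was at no more than 0.801 FPKM, in BF-2d replicate 3. IMF-4d lay above all other groups without overlap, the fitted change being 1.59 from IMF-2d to IMF-4d and -2.27 from IMF-4d to IMF-8d (SE 0.18). Even there CRABP2 supplied 94.4% to 95.7% of the summed CRABP FPKM.

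**Figure D3:**
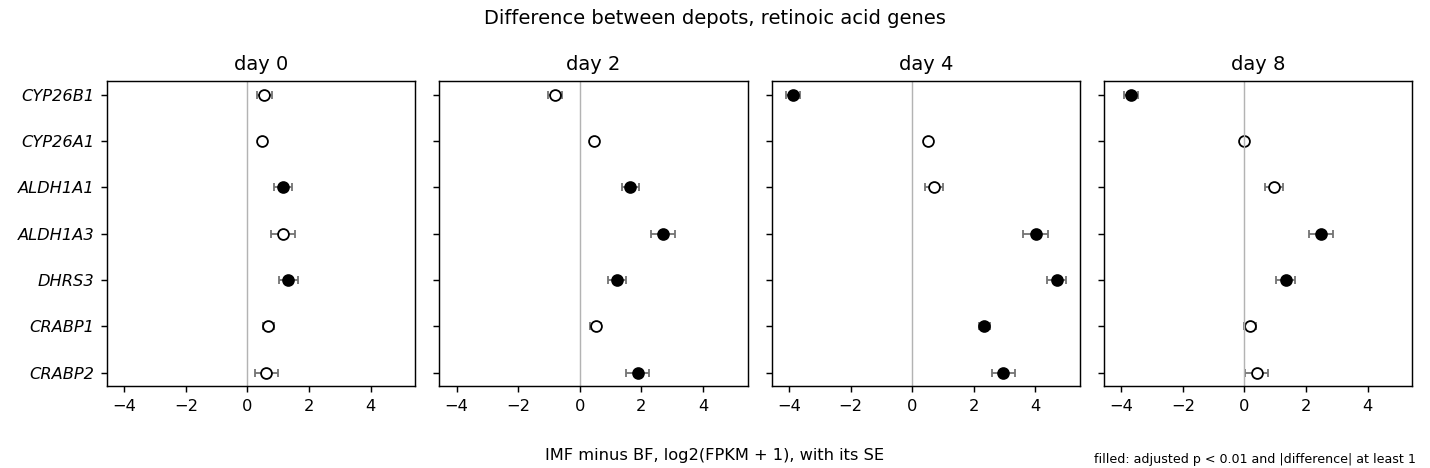
Fitted difference between depots, IMF minus BF on the log2(FPKM + 1) scale, for the 7 tested genes on each day, with its SE as the bar. Filled points passed the rule used for all genes, and the differences of ALDH1A3 and DHRS3 were largest on day 4 (4.01 and 4.70), where that of CYP26B1 was -3.88.

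The rule applied to all 16135 tested genes (limma, adjusted p under 0.01 and a difference of at least 1) was counted for the 7 genes as well, beside its share of all genes, with nothing read from it since these values had chosen the genes. Between days 0 and 2 it took 2 of the 7 in BF (6.59% of all genes) and 0 in IMF (0.787%). Between days 2 and 4 it took 3 in BF (3.35%) and 1 in IMF (0.0372%), and in the last interval it took 3 in BF (2.93%) and 5 in IMF (7.25%). Between depots it took 2 on day 0 (2.58%), 4 on day 2 (4.74%), 5 on day 4 (11.3%) and 3 on day 8 (6.96%). For changes that differed between depots (the IMF change minus the BF change) it took 0 in the first interval (2.45%), 3 in the second (3.06%) and 3 in the last (6.39%). The median difference of the 7 between depots was 0.69, 1.20, 2.35 and 0.39 on days 0, 2, 4 and 8, against 0.02, 0.07, 0.07 and 0.04 over all tested genes. The count of day 0 was the least steady, at 0 without BF-0d replicate 1 or 2 or any of the IMF-0d libraries and at 1 without BF-0d replicate 3, BF-4d replicate 2, BF-8d replicate 3 or any library of IMF-2d, IMF-4d or IMF-8d. From IMF-0d to IMF-2d there was 1 call without BF-2d replicate 3.

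Counted by libraries alone, all 3 IMF libraries were above all 3 BF libraries for all 7 genes on day 0, as for 23.5% of all tested genes. On day 2 this held for 5 of the 7 (23.2% of all), on day 4 for 5 (33.6%) and on day 8 for 4 (30.8%). CYP26B1 was the gene that changed sides, since its IMF libraries were below all BF libraries on days 4 and 8.

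The genes whose log2(FPKM + 1) followed each retinoic acid gene most closely over the 24 libraries were sought among 10087 tested genes with a symbol and a mean of at least 1 FPKM in some group. The libraries fall into 8 groups and share day and depot, so the Pearson correlation (r) is given as a description. CYP26B1 was followed by SLC13A5, a citrate carrier, NOCT, a clock-related enzyme, and BDKRB2, a bradykinin receptor (r of 0.98, 0.98 and 0.97). ALDH1A3 and DHRS3 shared TRIM45 among their closest genes (r of 0.96 and 0.95), ALDH1A3 being led by TEF, a transcription factor of the clock (0.96), with PARP2, a DNA repair enzyme (0.95), and DHRS3 followed also by DUT, a dUTP hydrolase, and POLR2H, a subunit of RNA polymerases (0.95 and 0.94). CRABP2 was nearest to periplakin (PPL), a carbonyl reductase (CBR3) and a calponin (CNN2), with r of 0.97, 0.96 and 0.96, and ALDH1A1 to STIL, CBR4 and SKA3 (0.91, 0.89 and 0.89), and CRABP1 to FZD8, KIAA1755 and FGF18 (0.88, 0.88 and 0.85).

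Another 57 genes of the wider retinoid pathway were listed by role, of which 50 were in the table and 35 were tested. Over the 10 pairwise comparisons, 12 of the 35 passed the rule at least once, as did 20.2% of all tested genes. Between depots 11 did (16.3% of all) and within a depot 7 did (14.4%). By role, in lists too short to be compared with each other or with that 20.2%, these were 3 of 4 carriers and uptake proteins, 0 of 4 genes of retinyl ester and carotenoid handling, 1 of 8 retinol and retinal dehydrogenases, 1 of 8 receptors and cofactors, 0 of 1 in the remaining group of enzymes and binding proteins (FABP5) and 7 of 10 genes known to respond to retinoic acid. The median difference of the 35 between depots was 0.05, 0.00, 0.17 and 0.21 on days 0, 2, 4 and 8, beside the medians of all tested genes given above. RDH10, the main retinol dehydrogenase of embryonic retinoic acid synthesis, passed in no comparison, as none of its differences reached 1, and had group means of 0.695 to 3.57 FPKM. Between depots it differed by -0.15, 0.60, 0.46 and 0.92 on days 0, 2, 4 and 8 (limma, adjusted p 0.56, 0.00268, 0.00904 and 2.53e-05). From BF-4d to BF-8d its change was -0.79 (adjusted p 4.22e-04).

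Among the carriers, RBP4, the plasma carrier of retinol, was higher in IMF on days 0 and 8. It stood at 11.06, 7.13 and 11.4 FPKM in IMF-0d against 1.18, 1.13 and 0.969 in BF-0d, and at 7.10, 5.41 and 6.17 FPKM in IMF-8d against 0.868, 1.18 and 1.15 in BF-8d. The groups did not overlap on either day, and the differences were 2.35 ± 0.16 (SE; limma, adjusted p 2.2e-09) and 1.80 ± 0.16 (adjusted p 4.75e-08). On days 2 and 4 it did not pass, at 0.79 and 0.46 (adjusted p 0.00112 and 0.0233). STRA6, the membrane receptor that takes up retinol from that carrier, was at 3.88, 3.76 and 4.804 FPKM in IMF-8d and at 0.729, 0.920 and 0.946 in BF-8d, a difference of 1.46 ± 0.15 (adjusted p 3.25e-07).

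DHRS7, a short-chain dehydrogenase with retinoid substrates among others, was the dehydrogenase that passed. It was at 14.9, 23.9 and 17.9 FPKM in BF-0d and at 7.40, 7.55 and 6.90 in IMF-0d, a difference of -1.24 ± 0.29 (adjusted p 6.38e-03). It was also lower by 1.14 ± 0.29 from IMF-4d to IMF-8d (adjusted p 5.01e-03). Neither call was firm. The first was lost without BF-0d replicate 2 or 3 or any of the IMF-0d libraries (adjusted p up to 0.0454) or with no filter, and the second without IMF-4d replicate 1 or 3 or any of the IMF-8d libraries (adjusted p up to 0.0244) or with median ratio scaling (-0.98).

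The receptor genes RARA, RARG, RXRA and RXRB were transcribed in all groups, whereas RXRG did not pass the limit for testing. RARG was at 28.3, 25.5 and 27.2 FPKM in IMF-4d and at 13.3, 11.2 and 11.2 in BF-4d, a difference of 1.12 ± 0.16 (adjusted p 1.47e-05) that fell under the limit of 1 with median ratio scaling (0.96). RARA stood at 11.7, 13.3 and 13.4 FPKM in BF-0d and 29.7, 29.9 and 20.8 in BF-2d, and at 22.0, 20.4 and 22.2 FPKM in IMF-0d and 18.0, 19.4 and 17.2 in IMF-2d. No single comparison of RARA passed, but its change from day 0 to day 2 differed between depots by -1.23 ± 0.18 (IMF change minus BF change, adjusted p 3.63e-04). RXRA, a shared partner of these receptors, was at 8.13, 8.62 and 6.56 FPKM in BF-4d and 13.4, 14.2 and 12.7 in IMF-4d, a difference of 0.73 that was under the limit of 1, and it passed in no pairwise comparison.

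The genes known to respond to retinoic acid did not move as a block. RARRES1 was higher in BF on day 4, at 28.5, 98.4 and 29.6 FPKM in BF-4d against 4.77, 4.498 and 4.47 in IMF-4d (difference -3.01 ± 0.30, adjusted p 2.04e-07). TGFB2, a signalling protein, was also higher in BF-4d and BF-8d, at 103, 43.6 and 77.6 FPKM in BF-8d against 14.1, 15.5 and 12.1 in IMF-8d (difference -2.27 ± 0.43, adjusted p 4.06e-04). RARRES2, which encodes the adipokine chemerin, went the other way, at 1.69, 1.14 and 0.325 FPKM in BF-4d against 5.82, 8.23 and 5.09 in IMF-4d (difference 1.88 ± 0.23, adjusted p 2.2e-06). HIC1, a transcriptional repressor, was at 3.82, 3.42 and 2.71 FPKM in BF-4d and 10.6, 13.2 and 10.7 in IMF-4d (difference 1.54 ± 0.18, adjusted p 1.23e-06). BHLHE40, a repressor of the clock, was higher in IMF on day 0 by 1.26 ± 0.21 (adjusted p 2.24e-04) and on day 2 by 1.14 ± 0.21 (adjusted p 5.46e-04). Without BF-2d replicate 3 the day 2 difference was 1.41, but its call was lost with median ratio scaling (0.98) and with only the libraries compared (adjusted p 0.047), as was that of TGFB2 on day 4 with only the libraries compared (adjusted p 0.0261). On days 4 and 8 BHLHE40 did not pass, at -0.01 and -0.84 (adjusted p 0.98 and 0.00356), the latter with the BF level above.

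Within the depots RARRES2 was the member of that list with the most changes. It fell by 1.40 between BF-0d and BF-2d (adjusted p 1.22e-04) and by 1.54 between IMF-0d and IMF-2d (adjusted p 2.66e-04), and rose by 1.33 between BF-4d and BF-8d (adjusted p 5.02e-04), each with an SE of 0.23. Its fall of 1.03 from BF-2d to BF-4d (adjusted p 3.38e-03) was lost without BF-2d replicate 2, BF-2d replicate 3 or BF-4d replicate 3, the last of which left -0.75. RARRES1 rose by 1.90 ± 0.30 from BF-2d to BF-4d (adjusted p 2.38e-04; 1.72 without BF-2d replicate 3) and by 2.24 ± 0.30 from IMF-4d to IMF-8d (adjusted p 1.18e-05), and TGFB2 rose by 2.23 ± 0.43 from BF-2d to BF-4d (adjusted p 1.17e-03), or by 1.75 without BF-2d replicate 3 and 1.58 without BF-4d replicate 3. With only the libraries compared, which leaves a fit on 6 libraries, none of these BF changes passed: the adjusted p was 0.0158, 0.197 and 0.062 for RARRES2 over the 3 intervals, 0.152 for RARRES1 and 0.173 for TGFB2. HIC1 fell by 1.44 ± 0.18 from IMF-4d to IMF-8d (adjusted p 4.49e-06).

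TGM2, a transglutaminase, stood at 3.10, 7.94 and 4.51 FPKM in BF-8d and at 13.6, 19.0 and 22.6 in IMF-8d, a difference of 1.70 ± 0.33 (adjusted p 4.43e-04). On days 0, 2 and 4 it did not pass, at 1.09, -0.21 and -0.88 (limma, adjusted p 0.0295, 0.687 and 0.0351). Its changes of 1.35 into BF-2d from BF-0d (1.74 without BF-2d replicate 3), -1.39 into BF-8d from BF-4d and 1.19 into IMF-8d from IMF-4d passed (adjusted p 3.47e-03, 5.53e-03 and 7.69e-03) but were each lost on leaving out any of several libraries. Those were BF-0d replicates 1 and 3 and BF-2d replicates 1 and 2 for the first, BF-4d replicates 1 and 3 and BF-8d replicates 1 and 3 for the second, and all IMF-4d libraries and IMF-8d replicates 2 and 3 for the third, with BF-0d replicate 3 and BF-8d replicate 3 through the shared spread (adjusted p up to 0.0264, 0.0327 and 0.041). The BF changes were also lost with only the libraries compared (adjusted p 0.0385 and 0.121), the second also with median ratio scaling or no filter, and the IMF change with no filter or the pseudocount of 0.1. MEIS2, a homeobox gene, was lower by 1.04 ± 0.22 from BF-4d to BF-8d (adjusted p 2.28e-03), and this was lost without BF-4d replicate 1 or 2 or BF-8d replicate 2 (-0.94 to -0.83), with either scaling (-0.93 and -0.94) and with only the libraries compared (adjusted p 0.115).

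On day 8 the differences of RARRES1 (-1.18 ± 0.30, adjusted p 4.71e-03), RARRES2 (1.09 ± 0.23, adjusted p 1.02e-03) and HIC1 (1.06 ± 0.18, adjusted p 1.32e-04) also passed. The first was lost without BF-8d replicate 2 or 3 or any of the IMF-8d libraries (adjusted p up to 0.0236), the second without IMF-8d replicate 3 (0.99), and the third without BF-8d replicate 2 or IMF-8d replicates 1 or 3 (0.95 to 0.97). With median ratio scaling RARRES2 (0.98) and HIC1 (0.99) fell under the limit of 1, and with the pseudocount of 0.1 RARRES2 had an adjusted p of 0.0103. RARRES1 was also higher in BF on day 2 (IMF minus BF -1.67 ± 0.30, adjusted p 5.8e-04; -1.84 without BF-2d replicate 3), as was TGFB2 on day 4 (-2.10 ± 0.43, adjusted p 5.54e-04; -1.46 without BF-4d replicate 3).

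**Figure D4:**
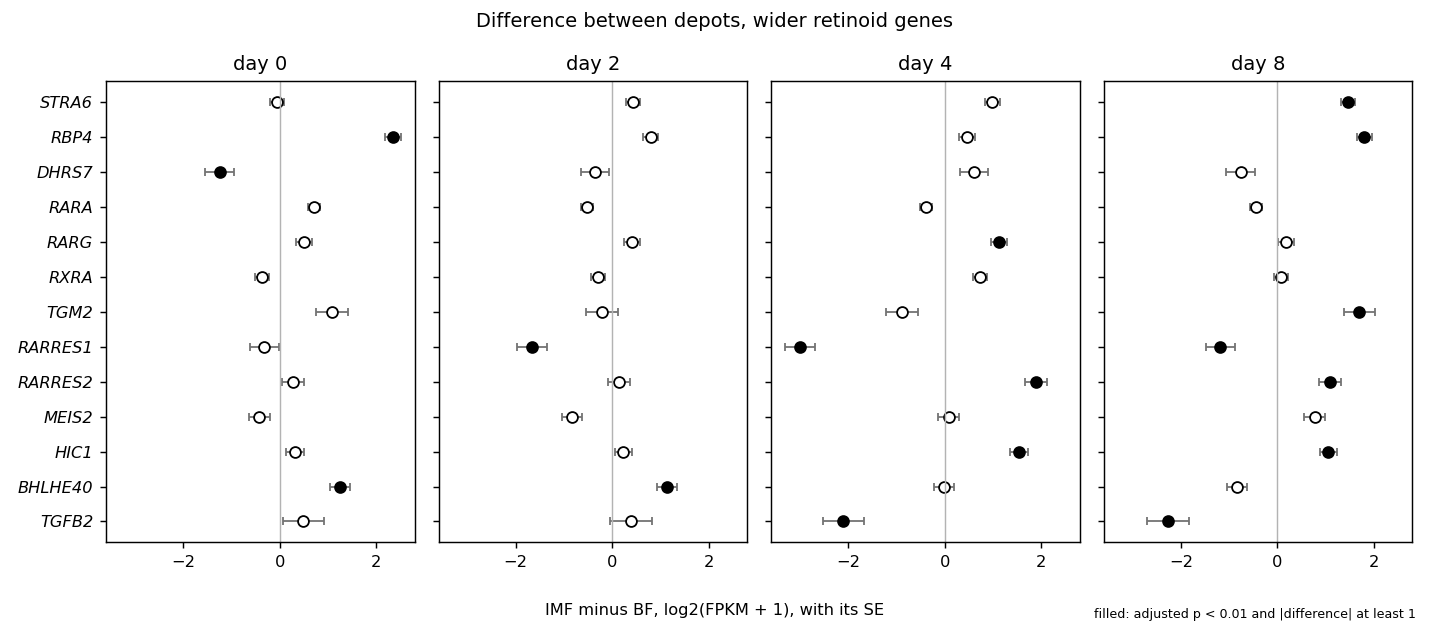
Fitted difference between depots (IMF minus BF, log2(FPKM + 1), SE as the bar) of the called wider retinoid genes named in the text, on each day. Filled points passed adjusted p under 0.01 with a difference of at least 1. RARRES1 and TGFB2 lie to the left on day 4 (-3.01 and -2.10), and RARRES2 and HIC1 to the right (1.88 and 1.54).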

How the data were processed

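The 24 mRNA libraries were sequenced as paired reads on an Illumina NovaSeq instrument. According to the methods of the study, the authors aligned the reads with HISAT2 to Sscrofa11.1, assembled and quantified transcripts with StringTie 1.3.4d and tested genes with DESeq2 1.6.3. The values the authors deposited are FPKM, 1 per gene and library. The commonest ratio between the low values of a pair of replicates was shared by at most 4.99% of genes, so whole reads could not be recovered, read depth stays unknown and values have no counting interval. Whether counting used strand is not given in the sources used here.

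Genes with FPKM summed over 24 libraries above 1 (16135) were tested as log2(FPKM + 1) with limma 3.58.1 in R 4.3.3 (1 mean per group, eBayes with trend and robust, all 24 libraries), and a gene was called where its Benjamini-Hochberg adjusted p was under 0.01 and its absolute log2 difference at least 1. Differences are later minus earlier day and IMF minus BF, and understate the change of low genes. There were 10 pairwise comparisons and 3 interaction contrasts. The fit was tested on simulated data.

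The 9 retinoic acid genes and all lists were chosen with earlier results of these data known. Named were these 9, each wider retinoid gene called at least once (except 1, counted but not reported here), PPARG and ADIPOQ, the 3 closest genes of each retinoic acid gene, and LPL, ACTA2 and other markers and RDH10 after their values were seen. Libraries share replicate numbers that the labels do not tie to a piglet. Alternatives were another pseudocount (0.1), no filter or a stricter one, median ratio and quantile scaling, only the libraries compared, a replicate block and leaving out each library.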

Additional observations from a re-analysis of the deposited data

Results flagged for a closer look

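Changes over an interval that differed between depots are given as the IMF change minus the BF change on the log2(FPKM + 1) scale. The retinoic acid genes were chosen on these values, so theirs carry no test. From day 2 to day 4 this difference was -3.08 (SE 0.33) for CYP26B1, 1.83 (SE 0.26) for CRABP1 and 3.49 (SE 0.43) for DHRS3. Without BF-2d replicate 3 it was -2.77 (SE 0.28) for CYP26B1 and 1.60 (SE 0.23) for CRABP1, and without BF-4d replicate 3 it was -2.80 (SE 0.29) for CYP26B1. From day 4 to day 8 it was -2.17 (SE 0.26) for CRABP1, -2.57 (SE 0.53) for CRABP2 and -3.36 (SE 0.43) for DHRS3. The rule used for all genes took 0 of the 7 genes in the first interval, but 3 without BF-2d replicate 3 and 1 without BF-4d replicate 1 or 3.

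Among the wider retinoid genes the difference was tested with limma. From day 0 to day 2 it was -1.56 ± 0.22 (SE) for RBP4 (adjusted p 3.57e-04) and -1.23 ± 0.18 for RARA (adjusted p 3.63e-04), and for both the BF mean was higher on day 2 than on day 0 and the IMF mean lower. From day 2 to day 4 it was 1.74 ± 0.33 for RARRES2 (adjusted p 2.09e-03), 1.304 ± 0.25 for HIC1 (adjusted p 2.7e-03) and 1.03 ± 0.21 for RXRA (adjusted p 3.31e-03). The call of HIC1 was lost without IMF-4d replicate 2 (1.21, adjusted p 0.0111), and that of RXRA without BF-2d replicate 3, BF-4d replicate 3, IMF-2d replicate 2 or 3 or IMF-4d replicate 2 (0.83 to 0.99). With only the libraries compared the calls of RARRES2, HIC1 and RXRA were lost (adjusted p 0.0359, 0.0289 and 0.0471). From day 4 to day 8 it was 2.58 ± 0.46 for TGM2 (adjusted p 6.09e-04), 1.34 ± 0.22 for RBP4 (adjusted p 2.91e-04) and 1.82 ± 0.43 for RARRES1 (adjusted p 5.41e-03). The call of RARRES1 was lost without BF-8d replicate 1 or any library of IMF-4d or IMF-8d (adjusted p up to 0.0157), with no filter (0.011) and with only the libraries compared (0.0365).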

How the results depend on the processing

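No difference turned its direction among those called. The fitted differences of the retinoic acid genes stayed within 1 SD between replicates under all settings but the pseudocount of 0.1 (21 of 70 moved) and leaving out a library (30 of 1680). Of the 40 called differences of wider retinoid genes, 14 were lost with only the libraries compared, 8 with median ratio scaling, 4 without a filter, 3 with the pseudocount of 0.1, 2 with quantile normalization and 0 with the stricter filter or the replicate block. The cause was not tested.

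Counts of called retinoic acid genes for IMF-0d against BF-0d (2) were 1 without a filter, 0 with median ratio scaling, 1 with quantile normalization and 1 with the replicate block. For the interaction of day 0 to day 2 (0) they were 1 with the pseudocount of 0.1, the stricter filter, median ratio scaling or quantile normalization. With only the libraries compared they were 0 for BF-0d to BF-2d, 0 for BF-2d to BF-4d, 0 for BF-4d to BF-8d, 1 for IMF-0d to IMF-2d, 0 for IMF-2d to IMF-4d (also 0 with the pseudocount of 0.1) and 1 for IMF-2d against BF-2d. Counts of wider genes with the pseudocount of 0.1 were 5, 6 and 6 for the 3 BF intervals, and 0, 0 and 0 with only the libraries compared, which also gave 1 for IMF-2d against BF-2d (1 with median ratio scaling) and 0 for the interaction of day 2 to day 4. Leaving out a library gave 0 to 3 retinoic acid genes for IMF-0d against BF-0d, 0 to 1 for IMF-0d to IMF-2d and 0 to 3 for the interaction of day 0 to day 2. For wider genes it gave 1 to 3, 2 to 5 and 1 to 3 over the BF intervals, 2 to 5 for IMF-0d against BF-0d, 2 to 4 for IMF-4d to IMF-8d, 4 to 7 for IMF-8d against BF-8d, and 1 to 5 and 2 to 6 for the interactions of day 2 to day 4 and day 4 to day 8.

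Replicate numbers showed no consistent shared effect. Deviations of same-numbered libraries correlated at -0.454 to 0.457 with a median of 0.00136 over 84 pairs. In 0 of 10 comparisons were all 3 pairs over 0.1, and 10 of the 24 libraries correlated best with their own number. These values cannot settle whether same-numbered libraries came from the same piglet. FPKM keep no read depth, so low genes such as CYP26A1, CRABP1 and ALDH1A2 cannot be given a counting error.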
